A study of Mus musculus with 4 samples.

Results

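The genes described here are the tumour necrosis factor (TNF) superfamily, taken as every gene whose symbol begins with Tnfsf or Tnfrsf, together with Tnf, Lta, Ltb, Ltbr and Fas. Cd40 was not taken in, and a gene had to have a probe set annotated with a single symbol. This gave 32 of the 18193 genes measured, of which 10 were ligands and 21 receptors. The remaining one, Tnfsf13os, is a noncoding transcript from the strand opposite Tnfsf13 and was counted with neither. Transcripts had been measured on 3′ expression arrays in skin of female wild type BALB/c mice, with 2 arrays labelled Control and 2 labelled MC903. All mice had first received ovalbumin, an egg-white protein, together with calcipotriol (MC903), a vitamin D analogue, on the ear skin, and had then been given ovalbumin by mouth. Between that challenge and another oral one, the MC903 group was treated on the skin with MC903 and the Control group with its solvent, ethanol (EtOH). The Control skin is therefore that of sensitised, challenged mice and not of untreated ones, and whether the later applications were made on the sensitised ear is not stated. The question put to the family is how its transcripts differ in skin given MC903 against skin given ethanol.

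Ligands of this superfamily are mostly trimers on the cell surface or shed from it, and they signal by clustering their receptors. Receptors with a death domain, such as Fas, can start programmed cell death. Others bind TRAF adapters and activate NF-kB, and several of these are costimulatory receptors of T cells. In skin, keratinocytes, fibroblasts, endothelium and leukocytes all carry members, so RNA of whole skin cannot show which cell made a transcript, nor can fewer cells of a type be told apart from less RNA per cell.

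Signals are linear intensities that had been scaled to a trimmed mean of 500 on each array, and the array medians lay between 90.2 and 109. Probes for bacterial genes (the TrpnX controls), a guide to background, had signals of 1.55 to 24. Markers of keratinocytes were bright on every array, with Krt5 at 27480 to 29872. Hair follicle markers differed most among the marker lists, the median of 6 genes being -3.39 on the log2 scale. The labels do not say whether each array was a different mouse. The p-values therefore describe the spread among these arrays alone, possibly technical, and 2 arrays a group set the precision. MC903 array 1 stood apart from MC903 array 2 in its leukocyte markers. Summed signals were 42863 against 20358 over 6 macrophage genes (15266 and 12785 in Control). Over 4 neutrophil genes they were 64508 against 10321 (865 and 1378 in Control). Of these 4, S100a8 and S100a9 held most of the sum, at 36942.6 and 26481.5 on MC903 array 1. Which cells made these transcripts was not tested, so the sum is no measure of neutrophil number. Cxcr2 stood at 275 and 115 in MC903 (81.7 and 45.7 in Control), and Csf3r at 809 and 233 (108 and 135 in Control). Skeletal muscle went the other way, with 5 markers summing to 7376 on MC903 array 1 and 24836 on MC903 array 2 (29279 and 15402 in Control).

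Stretches of 250 bases before the RefSeq transcription start (build GRCm38.p6) are given for 4 members on which the results below turn. Tnfrsf9 and Tnfsf11 had the largest differences among receptors and ligands, Ltb was higher on both MC903 arrays beside a neighbour, Tnf, whose groups overlapped, and Tnfrsf13c was the member with the lowest difference. Capitals mark matches, on either strand, to the NF-kB consensus site. The Tnfrsf9 stretch lies at chr4:150927749-150927998 on the plus strand and is the later of 2 annotated starts, the Ltb stretch at chr17:35194257-35194506 on the plus strand, the Tnfsf11 stretch at chr14:78308044-78308293 on the minus strand and the Tnfrsf13c stretch at chr15:82224381-82224630 on the minus strand.
Tnfrsf9: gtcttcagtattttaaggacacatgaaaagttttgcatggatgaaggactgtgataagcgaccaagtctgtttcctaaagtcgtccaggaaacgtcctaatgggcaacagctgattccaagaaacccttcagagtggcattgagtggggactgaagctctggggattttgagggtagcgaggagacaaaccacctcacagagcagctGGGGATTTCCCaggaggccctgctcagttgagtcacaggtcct
Ltb: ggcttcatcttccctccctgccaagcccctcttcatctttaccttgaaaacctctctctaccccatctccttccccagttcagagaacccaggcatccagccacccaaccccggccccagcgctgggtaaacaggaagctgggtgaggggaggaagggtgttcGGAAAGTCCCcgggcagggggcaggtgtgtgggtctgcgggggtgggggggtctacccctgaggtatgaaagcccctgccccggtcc
Tnfsf11: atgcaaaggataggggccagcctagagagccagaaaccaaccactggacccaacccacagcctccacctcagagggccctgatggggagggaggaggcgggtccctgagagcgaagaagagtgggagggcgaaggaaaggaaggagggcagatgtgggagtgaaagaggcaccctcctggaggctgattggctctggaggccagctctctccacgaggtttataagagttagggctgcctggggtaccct
Tnfrsf13c: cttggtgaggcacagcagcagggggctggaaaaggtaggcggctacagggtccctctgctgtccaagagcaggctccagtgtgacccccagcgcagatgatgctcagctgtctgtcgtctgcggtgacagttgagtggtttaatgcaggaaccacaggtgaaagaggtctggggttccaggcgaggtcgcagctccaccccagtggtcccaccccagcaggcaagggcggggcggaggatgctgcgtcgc
In the Tnfrsf9 stretch 2 overlapping matches begin at -43 and -42 from the start, and in the Ltb stretch 1 begins at -87. The other Tnfrsf9 start, and the Tnfsf11 and Tnfrsf13c stretches, hold no such letters. Promoters were found for 26 of the 31 ligands and receptors, in 30 stretches. A match was held by 4 of the 30 stretches, 1 each of Ltb, Tnfrsf8, Tnfrsf9 and Tnfrsf25, against 7.25% of all 32851 promoter stretches of that length. Of the 14 members with a promoter that were higher on both MC903 arrays, 2 had one. The AP-1 site TGANTCA was found in 5 of the 30 member stretches (Fas, Tnfrsf8, Tnfrsf9, Tnfsf13b and Tnfsf14) and in 6.75% of all stretches, in members never overlapping an NF-kB match. The vitamin D receptor consensus of direct repeats spaced by 3 bases was found for 0 members and in 0.0396% of all stretches. A match is a run of letters and shows no binding.

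Receptors and ligands whose signals did not overlap between the groups were mostly higher with MC903, and no member passed the test over all genes. Of 21 receptors, 11 were higher on both MC903 arrays and 2 lower, and of 10 ligands 4 were higher and 0 lower. Over all genes, 21.6% were higher in this way and 28.2% lower. The median log2 difference was 0.33 over the receptors and 0.21 over the ligands, against -0.04 over all genes, and whether receptors and ligands differ was not tested. A higher mean in MC903 was found for 22 of the 31 ligands and receptors, and for 45.7% of all genes. Differences are of log2(signal + 16), which understates those of dim genes. Limma with a constant prior variance called 0 members at an adjusted p below 0.05 (0% of all genes called higher and 0% lower), the smallest among members being 0.195. Without adjustment limma put 8 members higher (25.8% of the 31, against 6.82% of all genes) and 1 lower (3.23% against 8.39%) at a p below 0.05. The 8 were Tnfsf11, Tnfrsf9, Tnfrsf14, Tnfrsf1b, Tnfrsf23, Tnfrsf22, Tnfrsf1a and Tnfrsf18, and the lower one was Tnfrsf13c. Limma with a prior that follows the signal also called 0 members (0.539% of all genes called higher and 0.385% lower), with a smallest adjusted p of 0.0802, for Tnfrsf1a. With 2 arrays a group, the smallest two-sided p an exact permutation test allows is 0.333.

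These counts moved with single arrays. Without either Control array, fewer than those 8 members were higher at an unadjusted p below 0.05 by limma, as was a smaller share of all genes. Without MC903 array 1, 7 ligands and 17 receptors were higher than both Control arrays (35.8% of all genes), and without MC903 array 2, 6 receptors were lower (44.2% of all genes). The limma prior that follows the signal called members, all of them higher, only without MC903 array 2. That fit kept MC903 array 1 alone in its group, and it also called more of all genes, in both directions, than any other setting run. Leaving out MC903 array 1 lowered several differences, to 1.03 for Tnfsf11, 0.49 for Tnfsf14, 0.37 for Ltb, 0.24 for Tnfsf8, 0.59 for Tnfrsf1b, 0.19 for Tnfrsf13b and 0.27 for Ltbr. Leaving out MC903 array 2 lowered that of Tnfrsf4 to 0.25. Centring each array on its median moved the median of all genes by 0.12, to 0.08, and the non-overlapping shares of all genes to 29.6% higher and 18.3% lower. With that centring 5 ligands and 12 receptors were higher, and 0 and 1 lower.

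**Figure D1:**
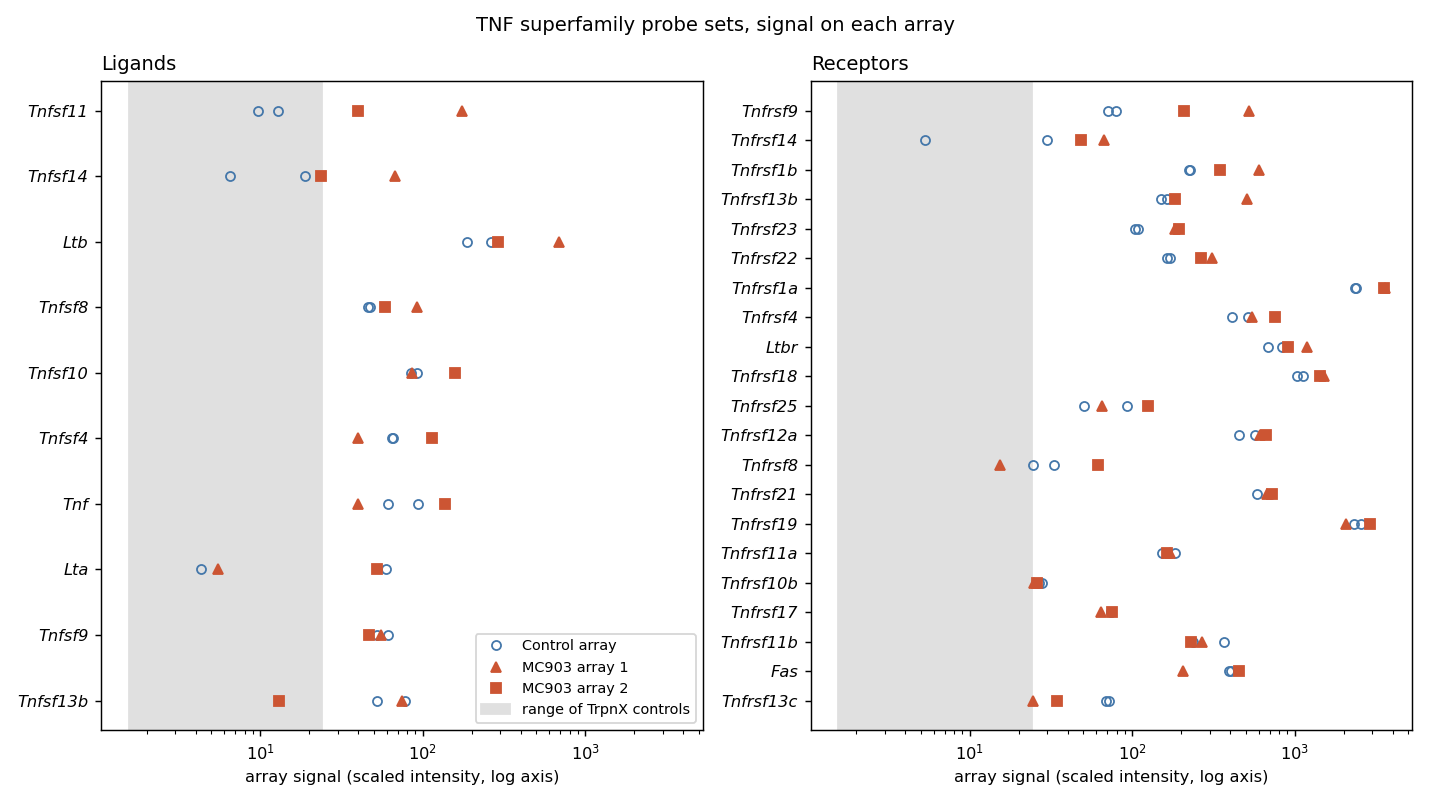
Signal of each ligand and receptor probe set on the 4 arrays (scaled intensity, log axis), with Control arrays as open circles, MC903 arrays 1 and 2 as filled triangles and squares, and the range of the TrpnX controls (1.55 to 24) shaded. Tnfrsf9, at the top right, stood at 71 and 79.2 in Control and above 200 on both MC903 arrays; signals of different probe sets are not comparable in level.

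Tnfrsf9, Tnfrsf4 and Tnfrsf18 had higher signals on both MC903 arrays than on both Control arrays, and none of them passed the test. Tnfrsf9, or CD137, is a costimulatory receptor that appears on activated T cells. Its signals were 71 and 79.2 in Control and 519.6 and 206.9 in MC903, which differ by 1.92 ± 0.46 on the log2 scale (SE, 2 arrays a group; adjusted p = 0.23 by limma). The groups lay well apart, with MC903 array 1 the highest, and Tnfrsf9 alone of the 31 was at least 2-fold higher in all 4 pairings of MC903 and Control arrays (1.16% of all genes; 0.813% were lower by that much). Both other probe sets of Tnfrsf9 were also higher on both MC903 arrays, by 2.08 and 0.66. Its ligand Tnfsf9 gave 61.4 and 52.1 in Control and 55.3 and 46.5 in MC903. These signals overlapped, and the difference of -0.12 had a 95% confidence interval of -0.59 to 0.35.

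Tnfrsf4, or OX40, supports the survival of activated T cells. It stood at 408 and 512 in Control and at 548 and 751 in MC903, a difference of 0.48 ± 0.24 (adjusted p = 0.427 by limma), so the groups were close but did not overlap. Tnfrsf18, or GITR, a receptor that regulatory T cells carry at high level, stood at 1028 and 1125 in Control and at 1517 and 1438 in MC903. Its difference of 0.45 ± 0.16 was alike on both MC903 arrays, at 0.49 and 0.41 against the Control mean (adjusted p = 0.313 by limma). Tnfrsf4 and Tnfrsf18 are neighbouring genes in the RefSeq order (GRCm38.p6), with 0 protein-coding genes between them. The OX40 ligand Tnfsf4, made by antigen-presenting cells, had signals of 64.3 and 66 in Control and of 40 and 113.7 in MC903. The Control signals thus lay between those of the MC903 arrays, and the difference of 0.07 ± 0.44 became -0.54 without MC903 array 2.

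Tnfsf8 and its receptor Tnfrsf8, or CD30, pass signals between activated lymphocytes. Tnfsf8 stood at 47.5 and 46.2 in Control and at 91.9 and 58.5 in MC903, a difference of 0.51 ± 0.24 (adjusted p = 0.396 by limma) without overlap. Tnfrsf8 was dim and divided, with 33.2 and 24.3 in Control and 15.4 and 61.9 in MC903. Tnfrsf25, a death-domain receptor found on T cells, was divided likewise, at 92.9 and 50.6 in Control and 64.9 and 125.2 in MC903.

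Of 6 T cell markers, 5 had higher signals on both MC903 arrays and 0 lower, beside 21.6% and 28.2% of all genes, and limma called 0 of them with either prior. Their median difference was 0.98, and their summed signals were 706 and 819 in Control and 1563 and 1462 in MC903. Among 4 regulatory T cell markers 3 were higher (Foxp3 by 0.95, Il2ra by 0.96 and Ctla4 by 1.65) and 1, Ikzf2, lower (-0.22), with a median of 0.96. Their sums lay at 1423 and 1369 in Control and 1457 and 1503 in MC903. Most of each sum was Ikzf2, at 1291 and 1236 in Control and 1021 and 1141 in MC903. Cd4 was at 10.3 and 12.8 in Control, within the range of the TrpnX controls. The part of T cell number in the receptor signals was not tested.

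**Figure D2:**
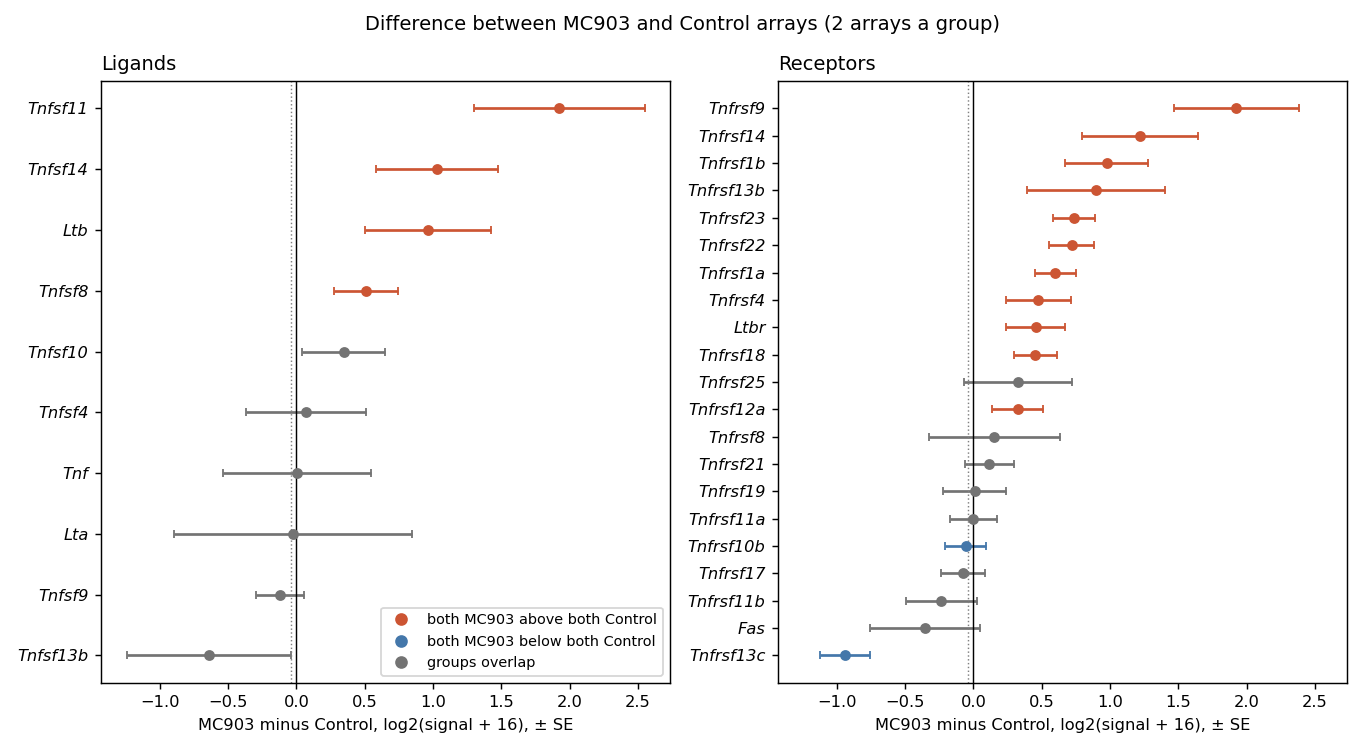
Difference between the MC903 and Control means of log2(signal + 16) for each ligand and receptor, with its standard error from limma (2 arrays a group), coloured by whether the groups' signals overlap. The dotted line is the median of all genes (-0.04), and 11 receptors and 4 ligands have both MC903 arrays above both Control arrays.

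Both receptors for TNF had higher signals on both MC903 arrays without passing the test, and the signals of Tnf overlapped between the groups. Tnfrsf1a, the TNF receptor with a death domain that most cell types carry, stood at 2332 and 2382 in Control and at 3594 and 3564 in MC903. Within each group the arrays nearly coincided, and the difference was 0.60 ± 0.15 (adjusted p = 0.238 by limma with a constant prior, 0.0802 with a prior that follows the signal). Tnfrsf1b, the other TNF receptor, which lacks a death domain and is found above all on leukocytes and endothelium, had signals of 224 and 226 in Control and of 604 and 346 in MC903. Its difference was 0.98 ± 0.30 (adjusted p = 0.283 by limma), again without overlap, and its other probe set differed by 1.25. Macrophage markers moved in the same order as Tnfrsf1b, with 6 of 6 higher on both MC903 arrays, beside 21.6% of all genes. Their medians were 1.38 on array 1 and 0.56 on array 2, with no measured marker near background, and their part in Tnfrsf1b was not tested.

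Tnf, the founding cytokine of the family, stood at 93.2 and 61.3 in Control and at 39.9 and 136.6 in MC903. The 2 MC903 arrays were the lowest and the highest, and the difference of 0.01 ± 0.54 had a 95% interval of -1.45 to 1.47, so a change of 2-fold in either direction lies within it. Lta, the gene of lymphotoxin alpha, which binds the same receptors, was as divided within groups, with 4.3 and 59 in Control and 5.49 and 52.5 in MC903. In each group 1 array lay within the range of the TrpnX controls.

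Ltb, the membrane anchor of the lymphotoxin heterotrimer, stood at 187 and 264 in Control and at 685 and 292 in MC903. MC903 array 2 was barely above the Control arrays, and the difference was 0.96 ± 0.46 (adjusted p = 0.408 by limma). Ltb, Tnf and Lta lie next to one another with 0 protein-coding genes between, and Ltb differed by 1.56 and Tnf by -0.72 on MC903 array 1 against the Control mean. Ltbr, the receptor of that heterotrimer on stromal cells and epithelium, had signals of 687 and 830 in Control and of 1188 and 912.6 in MC903, a difference of 0.46 ± 0.22 (adjusted p = 0.408 by limma) without overlap. Ltbr and Tnfrsf1a are also near neighbours, with 1 gene (Scnn1a) between them.

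Tnfsf14, or LIGHT, binds both Ltbr and the receptor Tnfrsf14, and the pair was higher in MC903 from Control signals within or near the TrpnX range. Tnfsf14 stood at 19 and 6.49 in Control and at 67 and 23.5 in MC903, so that 3 of its 4 signals lay within the range of the TrpnX controls. The difference was 1.03 ± 0.45 (adjusted p = 0.38 by limma), and its other probe set, at 7.37 and 4.78 in Control and 36.4 and 36.9 in MC903, differed by 1.26. Tnfrsf14, or HVEM, stood at 5.31 and 29.9 in Control and at 67.1 and 48 in MC903, a difference of 1.22 ± 0.43 (adjusted p = 0.312 by limma) that was 0.67 without Control array 1 and 1.78 without Control array 2. Because 1 Control signal was within background, its size depended on the added constant, being 2.05 with a constant of 1 and 0.59 with 64.

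Among the ligands the largest difference was that of Tnfsf11, or RANKL, the osteoclast differentiation factor, which keratinocytes and T cells also make. Its signals were 12.9 and 9.65 in Control, as dim as the TrpnX controls, and 175 and 39.8 in MC903. The groups did not overlap, but MC903 array 1 was far above array 2. The difference was 1.92 ± 0.63 (adjusted p = 0.294 by limma), or 2.80 with an added constant of 1 and 1.07 with 64. The other probe set of Tnfsf11, at 1.61 and 3.28 in Control and 120.4 and 15.1 in MC903, differed by 1.82.

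For both receptors of Tnfsf11 the groups overlapped. Tnfrsf11a, or RANK, which transmits its signal, stood at 153 and 183 in Control and at 170.3 and 164 in MC903, with a 95% interval of -0.46 to 0.46 around its difference. Tnfrsf11b, the secreted decoy osteoprotegerin, had signals of 365 and 236 in Control and of 267 and 229 in MC903. MC903 array 2 was the lowest and Control array 1 the highest, and the other probe set of Tnfrsf11b had the opposite sign, 0.24 against -0.23.

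Decoy receptors of TRAIL had higher signals on both MC903 arrays, without passing the test. Signals of TRAIL overlapped between the groups on the probe set used, and its other probe sets went opposite ways. Tnfrsf23 and Tnfrsf22 encode mouse decoy receptors that bind TRAIL without a death signal, and they are neighbours with 0 protein-coding genes between. Tnfrsf23 stood at 109 and 104 in Control and at 182 and 195 in MC903, a difference of 0.74 ± 0.15 (adjusted p = 0.206 by limma). Tnfrsf22 had signals of 165 and 172 in Control and of 309 and 266 in MC903, a difference of 0.72 ± 0.17 (adjusted p = 0.225 by limma). For both genes the groups were separate and the arrays within a group close, yet the pair is similar in sequence, so either probe set may also pick up the other gene. A probe set annotated to both, left out by the single-symbol rule, gave 290 and 284 in Control and 353 and 379.9 in MC903. Of the other Tnfrsf22 probe sets 1 differed by 0.41 and 1 by -0.08.

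Tnfsf10, the gene of TRAIL, stood at 92.5 and 84.6 in Control and at 85.9 and 157 in MC903, so the groups overlapped. Its 2 other probe sets disagreed with each other, differing by 0.66 and -0.57, each without overlap, the latter with all signals below 24. Tnfrsf10b, the death receptor for TRAIL, had signals of 25 to 27.7 on all arrays, just above the TrpnX controls. It was lower on both MC903 arrays, by 0.06, while its other probe set, at 31.4 and 37.9 in Control and 10.8 and 9.78 in MC903, was lower by 0.94. Fas, the death receptor for Fas ligand, stood at 403 and 391 in Control and at 205 and 455 in MC903. MC903 array 1 was well below both Control arrays and array 2 above them, which gave a difference of -0.35 ± 0.40.

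Of the receptors for the B cell factors BAFF and APRIL, Tnfrsf13c had lower and Tnfrsf13b higher signals on both MC903 arrays, Tnfrsf17 overlapped, and none passed the test. Tnfrsf13c, the BAFF receptor of mature B cells, stood at 69.1 and 72.2 in Control and at 24.6 and 34.1 in MC903, close to the TrpnX range. The groups were separate, and the difference of -0.94 ± 0.18 had the smallest adjusted p among members (0.195 by limma). Tnfrsf13b, or TACI, which binds both BAFF and APRIL, had signals of 151 and 164 in Control and of 509 and 182 in MC903. Its difference of 0.90 ± 0.50 (adjusted p = 0.468 by limma) was 1.60 on MC903 array 1 against the Control mean and 0.19 on array 2. Tnfrsf17, the receptor of plasma cells, lay between 64.5 and 74.8 on all arrays.

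Tnfsf13b, the gene of BAFF, stood at 51.9 and 77.7 in Control and at 74.3 and 13 in MC903. A single low array thus made its difference of -0.64 ± 0.60, which became 0.18 without MC903 array 2. Another probe set of Tnfsf13b gave 36.7 and 47.5 in Control and 21.8 and 57.5 in MC903, with MC903 array 2 the highest. It differed by -0.14, and the last probe set, at 1.46 to 2.16, was as dim as the TrpnX controls. B cell markers were dim. Of 5 measured, 2 were higher on both MC903 arrays and 0 lower, beside 21.6% and 28.2% of all genes. Their median was 0.35, and their summed signals were 186 and 202 in Control and 333 and 269 in MC903. Cd79a, part of the B cell receptor, lay within the range of the TrpnX controls on every array (3.67 to 14.9). The part of B cell number in these receptors was not tested.

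The remaining receptors had small differences. Tnfrsf12a, or Fn14, the receptor for TWEAK, stood at 565 and 454 in Control and at 609 and 669 in MC903, higher without overlap by 0.32 ± 0.19, on a probe set marked by its suffix (_x_at) as open to cross-hybridisation. Its other probe set overlapped between groups. Tnfrsf19, or TROY, a receptor of hair follicles and other epithelia, lay between 2069 and 2909 with a difference of 0.01 ± 0.23, even though hair follicle markers as a list were far lower. Tnfrsf21, or death receptor DR6, on a probe set shared by several transcripts (_s_at), lay between 588 and 724 with a difference of 0.12 ± 0.18. Another probe set of Tnfrsf21 was higher on both MC903 arrays, by 0.22, and of the other 2 probe sets of Tnfrsf19 1 was lower on both (-0.22) and 1 overlapped (0.01). Probe sets that share the symbols of Tnfsf12 and other genes of its locus were left out by the single-symbol rule, and Tnfsf15, Tnfsf18 and Tnfrsf26 were not analysed here. The one that also carries Tnfsf13 gave 254 and 232 in Control and 362 and 368 in MC903, and the other 322 and 270.5 in Control and 302 and 272 in MC903. Tnfsf13os stood at 113 and 102 in Control and at 120.7 and 135 in MC903.

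Against the Control mean, 16 members were higher on both MC903 arrays and 4 lower on both, counts for which no share of all genes was computed. Another 11 (35.5%) went opposite ways, a share near the 30.6% of all genes that did so. Tnfsf11, Tnfsf14, Ltb and Tnfsf8 were higher on MC903 array 1 than on array 2, as were Tnfrsf9, Tnfrsf1b and Tnfrsf13b. Tnf, Lta, Tnfsf4, Tnfsf10, Tnfrsf8, Tnfrsf25 and Fas were higher on array 2. In all, 16 of the 31 members (51.6%) were higher on array 1, near the 48.1% of all genes. Array 1 was also the one with more macrophage and neutrophil marker signal and less skeletal muscle signal (above), and the part of those cells in the members' signals was not tested.

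**Figure D3:**
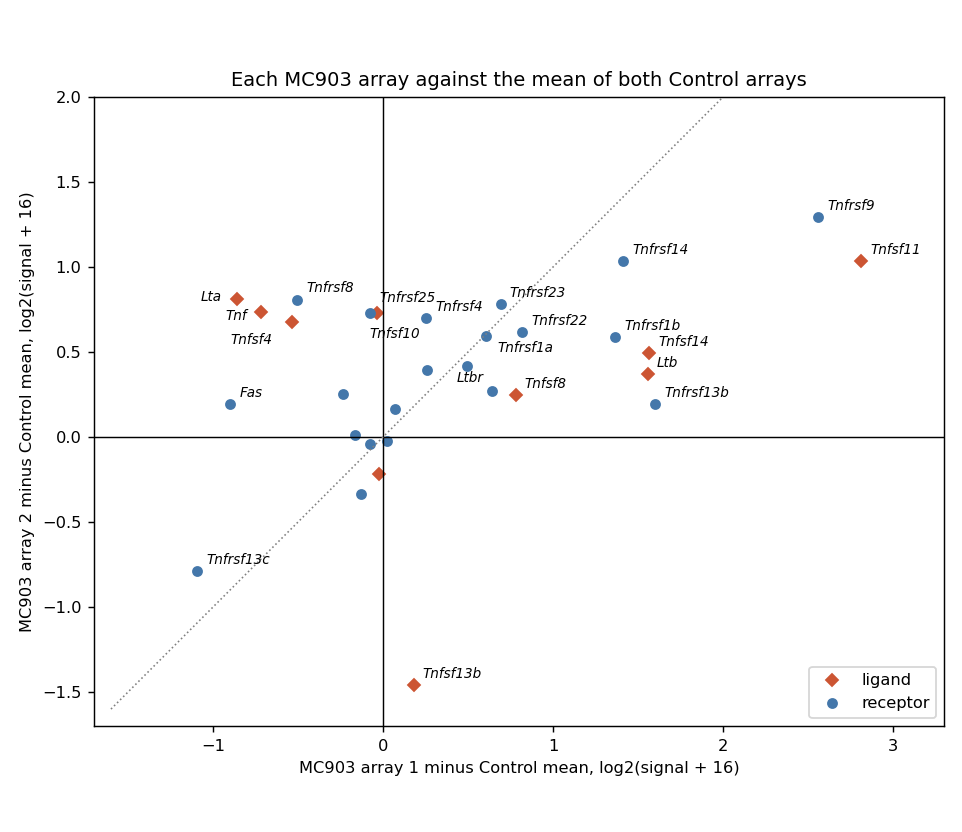
Difference of each MC903 array from the mean of both Control arrays, in log2(signal + 16), array 1 on the horizontal and array 2 on the vertical axis, with 1 point per ligand (diamond) or receptor (circle). Tnfrsf9 and Tnfsf11 lie far to the right of the dotted line of equality, while Tnf, Lta, Tnfsf4 and Fas lie to the upper left, below 0 on array 1 and above 0 on array 2; both axes share the Control mean, so the points' spread along the line is no independent agreement.

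Of 9 family members under other symbols, 2 were higher on both MC903 arrays (22.2%, beside 21.6% of all genes) and 1 lower (11.1%, beside 28.2%), and limma called 0. Edar, the ectodysplasin receptor of hair placodes and follicles, stood at 56.9 and 61.3 in Control and at 7.35 and 10.7 in MC903, within the range of the TrpnX controls, a difference of -1.59 ± 0.17 (adjusted p = 0.135 by limma). It was lower together with hair follicle markers, all 6 of which were lower on both MC903 arrays, with sums of 15643 and 26643 in Control and 1397 and 818 in MC903, and their part in it was not tested. Relt, a receptor of blood cells, differed by 0.89 ± 0.31 and Cd40lg, the T cell ligand of Cd40, by 0.88 ± 0.21. Cd70, the ligand of Cd27, had 3 of its 4 signals within the TrpnX range.

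Downstream of the receptors, 28 adapters and effectors of cell death were measured. On both MC903 arrays 11 were higher (39.3%, beside 21.6% of all genes) and 3, Birc2, Ikbkg and Sharpin, lower (10.7%, beside 28.2%). Their median was 0.10, and limma called 0. The kinase Ripk3 and its substrate Mlkl, which carry out necroptosis, had the largest differences there. Ripk3 stood at 171 and 136 in Control and at 538 and 304 in MC903 (1.32 ± 0.32, adjusted p = 0.234 by limma). Mlkl stood at 109 and 182 in Control and at 403 and 263 in MC903 (1.12 ± 0.34, adjusted p = 0.274 by limma). Map3k14, the NF-kB inducing kinase, differed by 0.70 ± 0.27 and the adapter Fadd by 0.55 ± 0.18.

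Of 17 genes induced through TNF receptors, 15 were higher on both MC903 arrays (88.2%, beside 21.6% of all genes) and 0 lower, with a median of 0.80. The median was 1.05 on MC903 array 1 and 0.55 on array 2. That order was also seen in macrophage markers (1.38 and 0.56) and in the neutrophil list (4.30 and 2.12). S100a8 and S100a9 raised the medians of the neutrophil list. Cxcr2 differed by 1.91 and 0.75 on these arrays against the Control mean, and Csf3r by 2.59 and 0.87, smaller but in the same order. The part of these cells in the induced genes was not tested. Limma called 0 of the 17 induced genes with a constant prior. With a prior that follows the signal it called 2 higher, beside 0.539% of all genes higher and 0.385% lower. These were Sele (1.94 ± 0.21 with the constant prior, adjusted p = 0.0395 by limma with the other) and Cxcl1 (1.83 ± 0.22, adjusted p = 0.048 likewise). Sele encodes the endothelial selectin that leukocytes roll on, and Cxcl1 a neutrophil chemokine. Il6 stood at 37.3 and 15.4 in Control and at 818 and 128 in MC903, a difference of 3.08 ± 0.91 (adjusted p = 0.272 by limma). Cxcl2 stood at 70.2 and 41.3 in Control and at 3056 and 63.9 in MC903, with array 2 inside the Control range, and its difference of 2.82 ± 1.81 rests on array 1. These genes answer to interleukin and microbial receptors as well as to TNF receptors.

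**Figure D4:**
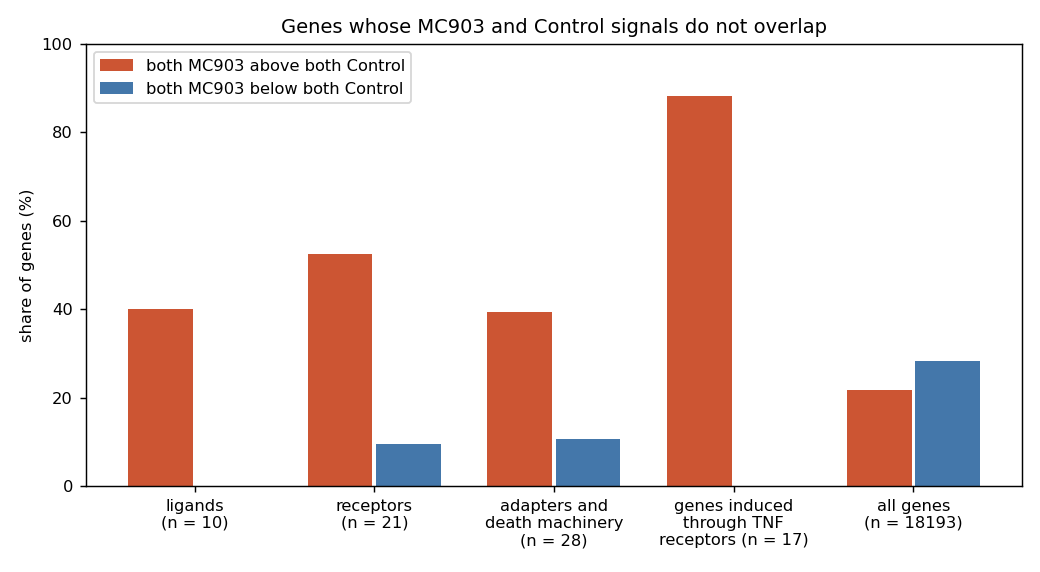
Share of genes (percent, axis from 0) with both MC903 arrays above or both below both Control arrays, for ligands (n = 10), receptors (n = 21), adapters and death machinery (n = 28), genes induced through TNF receptors (n = 17) and all 18193 genes. The higher share was 40% for ligands, 52.4% for receptors, 39.3% for adapters, 88.2% for induced genes and 21.6% for all genes.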

How the data were processed

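Per the labels' protocols, 200 ng of skin RNA was biotin-labelled by 3′ in vitro transcription. The authors' deposited values are linear scaled intensity per probe set (45101) on 4 arrays, with no detection calls; the sources used here do not name what computed them. On every array the mean of the values is 500 once 2% are trimmed from each end. Depth has no counterpart here; the number of arrays limits the precision.

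The 34945 probe sets with 1 symbol in the platform's annotation (34741 updated by Entrez ID to RefSeq, GRCm38.p6) were reduced to 18193 genes by the highest mean of log2(signal + 16) over the 4 arrays; 932 had several symbols, 9160 were unlisted and 64 were controls. Groups come from the labels. Limma 3.58.1 in R 4.3.3 (constant prior, 2 residual and 2.32 prior degrees of freedom, Benjamini-Hochberg over all genes, threshold 0.05) compared MC903 with Control. On simulated arrays (18193 genes, 200 changed, 20 runs) it recovered 4-fold changes in 93% and 16-fold changes in 99.6% of cases, among genes brighter than the median. The simulated noise took its variances from the fit with a prior that follows the signal. Such variances are already drawn towards the prior and differ less between genes, so these rates do not carry over to the real arrays. There limma called 0 of the 18193 genes, Krt33b, for example, having a difference of -5.20 and an adjusted p of 0.138 by limma. Members and lists were chosen with earlier results of these data known. Named members are the 8 ligands and 10 receptors with the largest differences among those above the TrpnX controls on both arrays of a group, the genes the rule names singly and their partners, and up to 4 genes per pathway list; Tnfrsf12a, Tnfrsf18, Tnfrsf19, Tnfrsf21 and Tnfrsf25 fall outside this rule and were given after their values were seen. Alternatives were a prior that follows the signal, quantile normalization, array centring, constants of 1 and 64, leaving out dim genes, averaging probe sets, a fit with the replicate number as a block, and each array left out; choosing probe sets by linear mean, and combinations with the other prior, were added after seeing the data.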

Additional observations from a re-analysis of the deposited data

How the results depend on the processing

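Limma called 0 members in either direction under every setting run except the prior that follows the signal without MC903 array 2. That fit held 1 MC903 array and called members only as higher. It also called more of all genes, in both directions, than any other setting run. Leaving out 1 array keeps a single array in 1 group, so member counts at an unadjusted p are not given for those fits. With 1 array left out, 4 to 7 ligands and 11 to 17 receptors were higher without overlap, and 1 to 2 ligands and 3 to 6 receptors lower. Over all genes 32.3% to 35.8% were then higher and 38.9% to 44.2% lower. With 1 array gone overlap is less likely by construction. The ligand median ranged from 0.077 to 0.59 and the receptor median from 0.25 to 0.39. With a replicate block 7 members were higher and 1 lower at an unadjusted p by limma, beside 6.45% and 6.5% of all genes, with 0 calls and a smallest adjusted p of 0.31. The labels do not say that replicate numbers pair the arrays, and deviations of same-numbered arrays correlated at -0.061 over genes.

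Leaving out the dimmest 50% of genes kept 10 members, 1 ligand and 9 receptors. Of these, 3 were higher and 0 lower at an unadjusted p by limma, beside 9.16% and 13.2% of the genes kept. The 1 ligand and 6 receptors were higher and 0 receptors lower without overlap, beside 23% and 33.3%, and the ligand median was 0.96. The receptors lower without overlap came to 1 under quantile normalization, array centring or without the dimmest 25% (25.1%, 18.3% and 32.3% of the genes in each). With probe sets averaged, 2 members were lower at an unadjusted p by limma (7.49% of all genes) and 1 ligand lower without overlap (27.7% of all genes).

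Of 26 named members 15 kept their sign under every setting run that retained them. The other prior and the replicate block leave each difference unchanged by construction. Members whose groups do not overlap cannot change sign when 1 array is left out. For those members a kept sign under these settings is therefore no further support. Signs changed under quantile normalization for Tnfrsf11a (0.12) and Tnfrsf17 (0.017), under array centring for Lta (0.094), Tnfrsf10b (0.062), Tnfrsf11a (0.12) and Tnfrsf17 (0.042), with a constant of 1 for Tnf (-0.030) and Lta (0.063), and with probe sets averaged for Tnfrsf11a (0.068) and Tnfrsf11b (0.0022). Leaving out 1 array gave ranges of -0.72 to 0.73 for Tnf, -0.97 to 0.92 for Lta, -0.54 to 0.68 for Tnfsf4, -0.036 to 0.73 for Tnfsf10, -1.46 to 0.18 for Tnfsf13b, -0.90 to 0.19 for Fas, -0.50 to 0.81 for Tnfrsf8, -0.12 to 0.12 for Tnfrsf11a, -0.53 to 0.062 for Tnfrsf11b and -0.16 to 0.0090 for Tnfrsf17. A group reduced to 1 array takes its spread from the remaining group, and the cause of these changes was not tested. Signals near the TrpnX controls limit the dim members.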
